A study of Mus musculus with 15 samples.

Results

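A set of 10 genes of cell-cycle braking was followed through mouse mammary tumors and control mammary glands: the 4 INK4 inhibitors Cdkn2a, Cdkn2b, Cdkn2c and Cdkn2d, the 3 CIP/KIP inhibitors Cdkn1a, Cdkn1b and Cdkn1c, and the 3 pocket proteins Rb1, Rbl1 and Rbl2. They were chosen by name, as members of these families, with earlier results of these data known. They are 10 of the 51826 genes in the tables, all found once by symbol. RNA was measured by sequencing of whole tissue in 15 libraries from 13 mice.

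The Trim24COE mice carry a FLAG-tagged mouse Trim24 cDNA behind a stop cassette, as a single integration of a piggyBac transgene, and MMTV-Cre removes the cassette in mammary epithelium. Tumors of 6 Trim24COE mice were sequenced. Mice 64, 567 and 897 gave the 3 metaplastic carcinosarcomas, tumors with epithelial and mesenchymal parts, while mice 89, 273_5 and 3956 gave the 3 carcinomas. Disease-free mammary glands of 4 age-matched MMTV-Cre females served as controls (mice 133, 392, 417_3 and 517_3), and a further group was 3 spontaneous non-TRIM24 tumors, whose genotype label is unknown (mice 219, FVB001 and FVB002). Strain is labelled FVB, the study describes an FVB or mixed FVB and 129 background, and no age in days was given in the labels. The study lists ages in months for the Trim24COE mice, and they differed. Mice 897 and 3956 were the oldest of the 6 and mouse 273_5 the youngest, and the part of age was not tested. Each mouse gave 1 sequenced tissue, so n counts mice.

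Levels are in TPM, an abundance of transcripts corrected for their length and scaled to a fixed total, which leaves depth unknown and allows no interval for counting error. From 21060 to 34209 genes were detected in a library, and its 10 most abundant genes held 6.66% to 22.7% of all TPM. Trim24 itself had a TPM of 10.6 to 24.1 in the Trim24COE tumors, 14.5 to 22.4 in the control glands and 5.34 to 10.04 in the non-TRIM24 tumors. Its TPM per gene thus did not separate the transgenic tumors from the glands. The study, by contrast, reports high Trim24 RNA in the tumors by RNA-seq and qRT-PCR. It also reports overexpressed TRIM24 and FLAG protein by immunohistochemistry, and the cause of this difference was not tested. All non-TRIM24 tumors were sequenced in batch 2 and all other first libraries in batch 1, with gland 133 and carcinoma 3956 sequenced in both. The class was taken from the labels; the pathologists of the study gave different calls for tumors 89, 567 and 3956, and whether calls based on RNA entered the labels is not stated.

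Cells pass from G1 to S phase when cyclin D with Cdk4 or Cdk6, and then cyclin E with Cdk2, phosphorylate the pocket proteins and release E2F transcription factors from them. INK4 proteins bind Cdk4 and Cdk6 and keep cyclin D away, whereas CIP/KIP proteins bind whole cyclin-kinase complexes, above all those of Cdk2. Rb1 holds the activating E2Fs, and its relatives p107 (Rbl1) and p130 (Rbl2) work mostly with the repressive E2Fs, p130 in resting cells. A high p16Ink4a level together with loss of Rb function is a familiar picture in mammary cancers.

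Cdkn2a and Cdkn2b lie side by side on chromosome 4. Cdkn2a has 2 first exons joined to a shared second exon: in the GENCODE M21 annotation of GRCm38, on the minus strand, transcript Cdkn2a-201 starts with the exon at chr4:89281986-89282192, which encodes the start of the Cdk4 and Cdk6 inhibitor p16Ink4a, and transcript Cdkn2a-202 with the exon at chr4:89294334-89294653, which encodes the start of p19Arf, an inhibitor of Mdm2 and thereby an activator of p53. Both transcripts continue into exon 2 at chr4:89276645-89276985. The tables give 1 value per gene, so p16Ink4a and p19Arf RNA could not be told apart in any value of Cdkn2a.

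Promoter windows of 300 bases, from 250 before to 50 after a transcription start, were taken from RefSeq on GRCm38.p6, where 8 of the 10 genes matched with 11 windows, and Rb1 and Cdkn1c had no entry. The windows of Cdkn2a and Cdkn2b are shown because these genes were high together in the tumors, and the window of Rbl1 because it held an E2F word. Each is written in the direction of transcription from the minus strand, with any E2F word in capitals. The p19Arf start of Cdkn2a lies in chr4:89294570-89294869, the p16Ink4a start in chr4:89282143-89282442, the Cdkn2b start in chr4:89310983-89311282 and the Rbl1 start in chr2:157204485-157204784.
Cdkn2a, p19Arf start: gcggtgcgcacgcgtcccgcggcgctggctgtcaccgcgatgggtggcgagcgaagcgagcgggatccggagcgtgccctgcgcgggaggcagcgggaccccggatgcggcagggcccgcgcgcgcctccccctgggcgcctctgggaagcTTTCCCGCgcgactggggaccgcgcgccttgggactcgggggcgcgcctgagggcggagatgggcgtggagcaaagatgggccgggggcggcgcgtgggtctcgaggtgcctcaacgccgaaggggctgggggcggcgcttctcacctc
Cdkn2a, p16Ink4a start: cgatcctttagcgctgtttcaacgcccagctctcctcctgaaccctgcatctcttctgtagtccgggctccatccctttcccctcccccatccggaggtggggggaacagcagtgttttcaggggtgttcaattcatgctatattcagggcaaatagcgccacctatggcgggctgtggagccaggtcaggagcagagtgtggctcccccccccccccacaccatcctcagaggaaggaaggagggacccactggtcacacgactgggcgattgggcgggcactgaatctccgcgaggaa
Cdkn2b: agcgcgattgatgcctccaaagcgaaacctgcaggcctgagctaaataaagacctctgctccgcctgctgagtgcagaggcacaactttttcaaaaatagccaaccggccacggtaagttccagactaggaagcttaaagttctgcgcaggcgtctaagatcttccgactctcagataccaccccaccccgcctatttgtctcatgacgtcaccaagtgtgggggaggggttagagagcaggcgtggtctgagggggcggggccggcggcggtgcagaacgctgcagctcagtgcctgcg
Rbl1: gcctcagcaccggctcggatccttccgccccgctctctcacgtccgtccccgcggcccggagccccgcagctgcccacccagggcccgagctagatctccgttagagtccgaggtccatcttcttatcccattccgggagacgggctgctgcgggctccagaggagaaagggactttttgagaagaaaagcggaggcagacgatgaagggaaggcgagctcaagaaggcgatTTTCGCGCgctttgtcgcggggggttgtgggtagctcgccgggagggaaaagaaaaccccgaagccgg

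The 4 words searched on both strands were TTTGGCGC, TTTCGCGC, TTTCCCGC and TTTGCCGC, forms of the site bound by E2F factors. Among the 11 windows 2 held a word, TTTCCCGC at position -99 from the p19Arf start and TTTCGCGC at position -18 from the Rbl1 start, against 2.26% of the 32851 mouse windows of this length searched. The p19Arf window had 77% G and C and 45 CG dinucleotides and the p16Ink4a window 60.3% and 12, beside medians of 52.7% and 7 over all windows. Cdkn2b had 57.7% and 18, and Rbl1 64% and 29. These are matches of letters and say nothing of binding in the tumors.

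Cdkn2a (ENSMUSG00000044303.6, GRCm38 chr4:89274471-89294653, minus strand) had the largest difference of the 10 genes in each comparison of Trim24COE tumors with glands, and its highest levels were in the metaplastic carcinosarcomas. Its TPM was 780 in mouse 64, 887 in mouse 567 and 1074 in mouse 897, a mean of 914 ± 149 (SD, n = 3). Carcinomas 89, 273_5 and 3956 had 138, 154 and 90.2, a mean of 128 ± 33.3 (SD, n = 3). The glands of mice 133, 392, 417_3 and 517_3 had 2.49, 16.5, 3.0 and 3.41, a mean of 6.36 ± 6.80 (SD, n = 4). Non-TRIM24 tumors 219, FVB001 and FVB002 lay between at 65.6, 10.01 and 33.8. Neither tumor class of the Trim24COE mice overlapped with the glands or with the other class, whereas non-TRIM24 tumor FVB001 lay below gland 392. High Cdkn2a RNA in the Trim24COE tumors compared with Cre-only glands is also reported by the study, from RNA-seq and qRT-PCR.

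**Figure D1:**
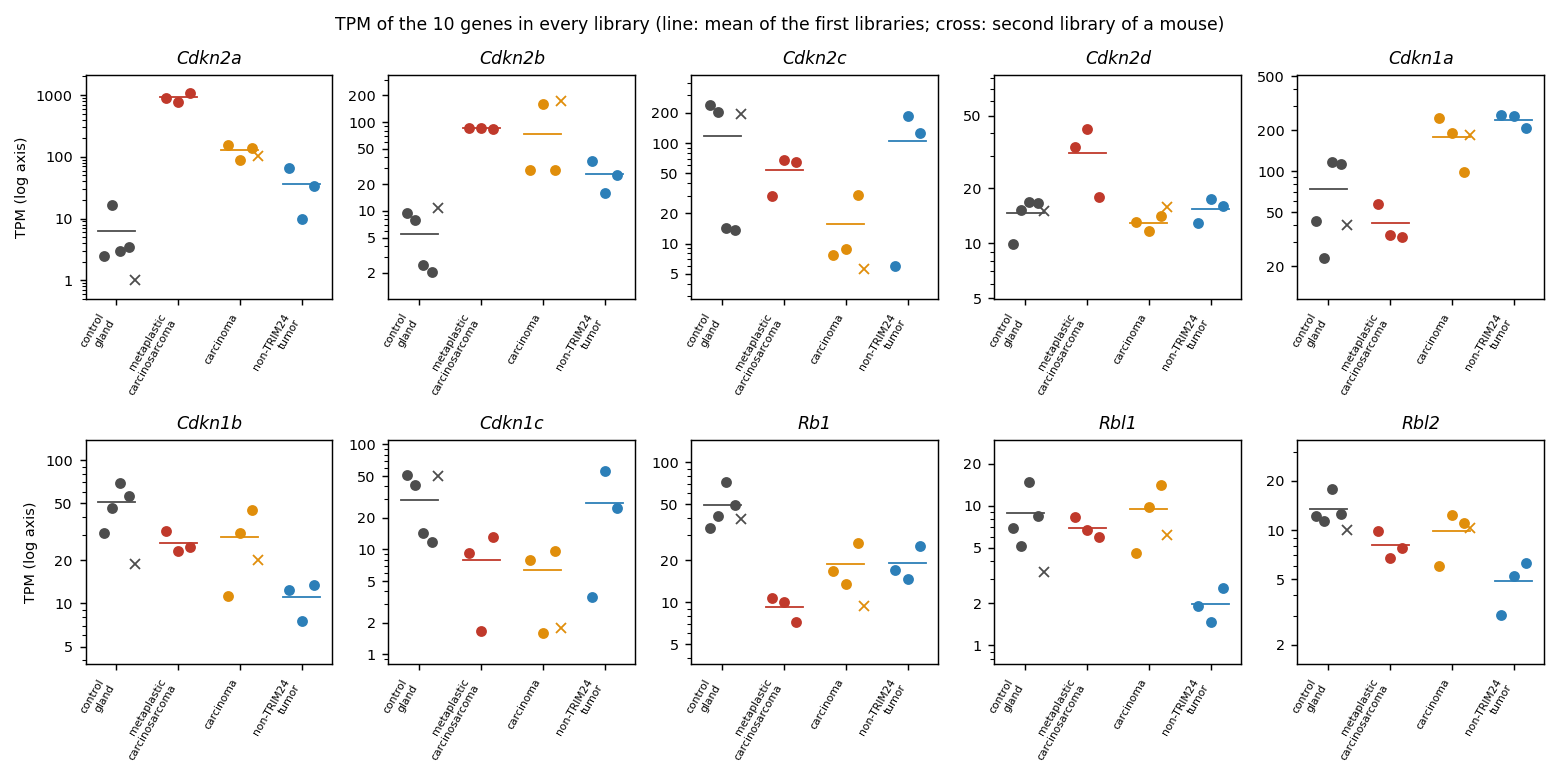
TPM of each of the 10 genes on a log axis, with 1 point per mouse, the line at the mean of the first libraries of a group and a cross for the second library of gland 133 or carcinoma 3956. Cdkn2a stands at 780 to 1074 in the metaplastic carcinosarcomas and at 2.49 to 16.5 in the control glands, and Rb1 is highest in the glands.

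The comparisons asked which genes differ between Trim24COE tumors and normal glands, and between the tumor classes. They used limma on log2(TPM + 1) with Benjamini-Hochberg adjustment over all genes tested, and differences below are on that scale, tumors minus glands unless said otherwise. In the 6 Trim24COE tumors against the 4 glands, 4 of the 10 genes passed an adjusted p of 0.05, 2 higher and 2 lower, beside 17.1% of the 15196 genes tested. Groups did not overlap for 3 of the 10, beside 14.6% of all genes. Cdkn2a rose by 5.88 ± 0.79 (SE), a 58.8-fold change of TPM + 1 (limma, adjusted p = 0.00111), and Cdkn2b rose by 3.59 ± 0.54 (limma, adjusted p = 0.00193). Rb1 fell by 1.80 ± 0.34 (SE, limma, adjusted p = 0.00617). For these 3 genes the exact permutation p over mice was 0.00476, two-sided, the smallest that 6 against 4 mice allow. All 3 calls held in the 8 alternative fits with every mouse and in the 10 fits that left out 1 mouse.

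Cdkn1c (ENSMUSG00000037664.13, chr7:143458339-143461050, minus strand), an imprinted gene whose protein p57 restrains growth in the embryo, fell by 1.92 ± 0.60 (SE) with an adjusted p of 0.0492 in limma, close to the threshold. Its groups overlapped, and it passed in 1 of the 8 alternative fits with every mouse (adjusted p 0.0493 to 0.446) and in 3 of the 10 that left out 1 mouse. The other 6 genes did not pass. Their differences ran from -1.11 for Cdkn2c (95% interval -3.19 to 0.98) to 0.44 for Cdkn1a (-1.01 to 1.89), and the median over the 10 genes was -0.32 beside -0.04 over all genes.

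With the metaplastic carcinosarcomas alone set against the same 4 glands, 3 of 10 genes passed, beside 23% of 15287 genes. Cdkn2a was higher by 7.31 ± 0.54 (SE), a 158-fold change of TPM + 1 (limma, adjusted p = 0.000538), Cdkn2b by 3.95 ± 0.48 (adjusted p = 0.00196), and Rb1 was lower by a 4.77-fold change (adjusted p = 0.0029). Values of 5 of 10 genes did not overlap, beside 37% of all genes, the further ones being Cdkn2d (difference 0.99, limma adjusted p = 0.0758) and Rbl2 (difference -0.66, adjusted p = 0.12). Exact permutation could not go below 0.0286 with 3 against 4 mice, and all 5 reached it.

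For the carcinomas against the glands, 1 of 10 genes passed, beside 3.5% of 15479 genes: Cdkn2a, higher by 4.45 ± 0.57 (SE), a 21.9-fold change of TPM + 1 (limma, adjusted p = 0.015). Without the filter on low values its adjusted p was 0.0575. Non-overlap was seen for 4 of 10, beside 21.4% of all genes, the further ones being Cdkn2b with a difference of 3.23 (limma, adjusted p = 0.0542), Rb1 with -1.34 (adjusted p = 0.0785) and Cdkn1c with -2.03 (adjusted p = 0.137). These 3 comparisons share the gland libraries and are not independent of each other.

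**Figure D2:**
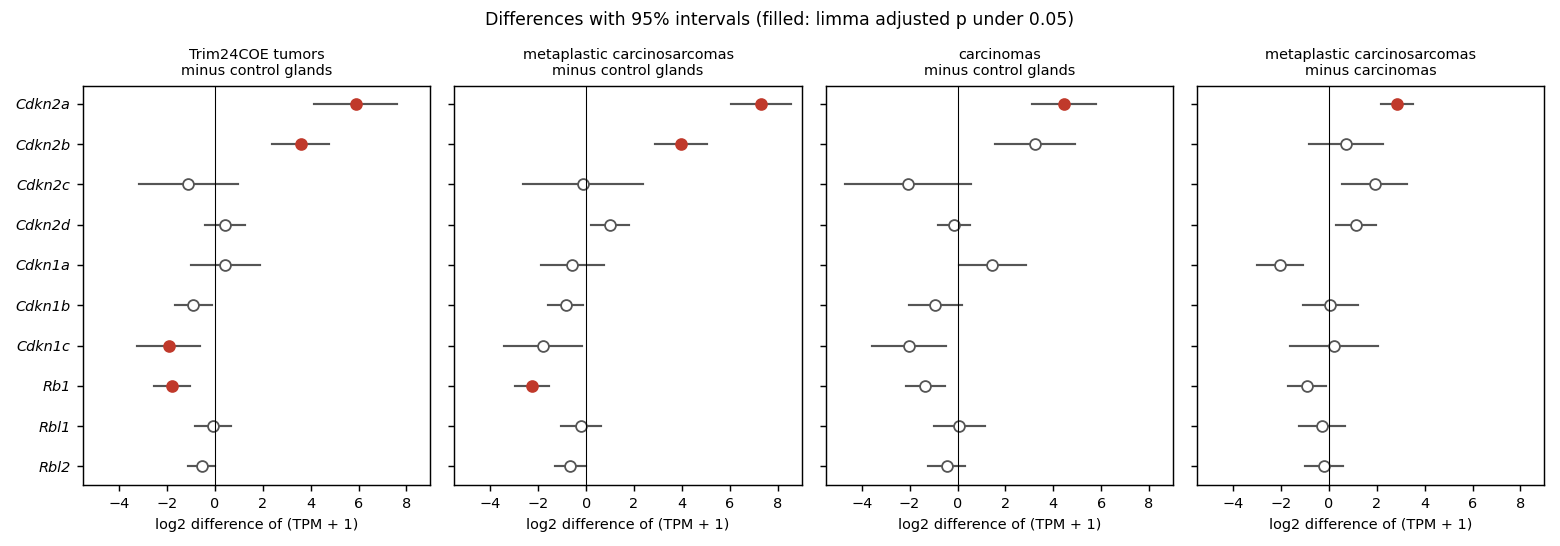
Difference of log2(TPM + 1) for each gene in 4 comparisons within batch 1, with 95% intervals from limma, filled where the adjusted p was under 0.05. Cdkn2a is filled in all 4 panels, and Cdkn1c is filled only for all Trim24COE tumors, where its adjusted p was 0.0492.

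Between the tumor classes, 1 of 10 genes passed, beside 0.698% of the 14193 genes tested. Cdkn2a was higher in the metaplastic carcinosarcomas than in the carcinomas by 2.86 ± 0.28 (SE, 95% interval 2.19 to 3.52), a 7.24-fold change (limma, adjusted p = 0.013). Non-overlap between the classes was seen for 4 of 10, beside 21.8% of all genes, and an exact permutation test cannot go below 0.1 with 3 against 3 mice. The call was lost without mouse 64 (difference 2.96, limma adjusted p = 0.107), without mouse 89 (2.93, adjusted p = 0.0697), without mouse 897 (2.73, adjusted p = 0.06), without the filter on low values (2.86, adjusted p = 0.0802) and with adipocyte markers as a covariate (3.16, adjusted p = 0.179), while the difference itself stayed between 2.63 and 3.16. Luminal epithelial markers summed to 300.5 to 1414 TPM in the metaplastic carcinosarcomas and 2685 to 6163 in the carcinomas, with 2 of the 10 markers called lower, and fibroblast markers to 1648 to 6404 and 255.9 to 2367, with 0 of 7 called. Against the glands, 8 of 10 luminal and 4 of 7 basal epithelial markers were lower and 3 of 7 fibroblast markers higher in the metaplastic carcinosarcomas. Over all genes 23% were called in that comparison. None of these markers was at 0 in any mouse. The part of cell composition in the Cdkn2a difference was not tested, and in whole tissue more cells of a type and more RNA per cell cannot be told apart.

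Cdkn2b (ENSMUSG00000073802.4, chr4:89306299-89311039, minus strand) encodes p15Ink4b, an inhibitor of Cdk4 and Cdk6 that TGF-beta can induce. Its TPM was 85.0, 86.5 and 83.9 in metaplastic carcinosarcomas 64, 567 and 897, the highest 1.03 times the lowest. Carcinomas 89 and 273_5 had 29.0 and 28.5, and carcinoma 3956 had 162, the highest of any first library, with 172 in its repeat. Glands 133, 392, 417_3 and 517_3 had 9.44, 7.90, 2.47 and 2.03, and non-TRIM24 tumors 219, FVB001 and FVB002 had 36.3, 16.0 and 25.7. Both Trim24COE classes lay above all glands and the classes overlapped with each other, with a difference of 0.72 (95% interval -0.81 to 2.25). Without carcinoma 3956 that difference was 1.53 (limma, adjusted p = 0.0333).

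Cdkn2c (ENSMUSG00000028551.14, chr4:109660876-109667189, minus strand) encodes p18Ink4c, which is induced as cells leave the cycle to differentiate, fat cells among them. The TPM of the glands fell into pairs, 241 and 206 in mice 133 and 392 against 14.2 and 13.7 in mice 417_3 and 517_3. Non-TRIM24 tumors FVB001 and FVB002 had 186 and 125 and tumor 219 had 5.98. Metaplastic carcinosarcomas 64, 567 and 897 had 68.5, 29.7 and 65.4, and carcinomas 89, 273_5 and 3956 had 30.6, 7.65 and 8.75. No comparison gave a call for Cdkn2c, and its highest gland was 17.5 times its lowest.

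The mice high in Cdkn2c were also high in fat cell markers. The 10 adipocyte markers, among them Adipoq and Plin1, summed to 27050 and 39880 TPM in glands 133 and 392 and to 55910 and 28370 in tumors FVB001 and FVB002, against 1804 and 1987 in glands 417_3 and 517_3. The sum was 134 to 1356 in the 6 Trim24COE tumors and 183 in tumor 219. Of the 10 markers 3 were called lower in the Trim24COE tumors, beside 17.1% of all genes called, and none was at 0 in any mouse. Cdkn1c was high in the same mice, at 50.7 and 41.4 TPM in glands 133 and 392, 14.3 and 11.8 in glands 417_3 and 517_3, 55.3 and 24.8 in tumors FVB001 and FVB002, and 1.61 to 13.05 in all other tumors. With the adipocyte score as a covariate, the Cdkn1c difference between Trim24COE tumors and glands was -0.78 (limma, adjusted p = 0.446). Under the same covariate the Cdkn2c difference between metaplastic carcinosarcomas and glands was 2.62 (adjusted p = 0.0196), against -0.15 (adjusted p = 0.937) without it. Cdkn2a, Cdkn2b and Rb1 kept differences of 5.84, 3.92 and -1.80 between Trim24COE tumors and glands with the covariate (limma, adjusted p = 0.0123, 0.0124 and 0.042). The marker sums of the glands, 1804 or more, did not overlap with those of either Trim24COE class, 177 to 260 in the metaplastic carcinosarcomas. These fits therefore cannot fully tell the covariate from the group.

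**Figure D3:**
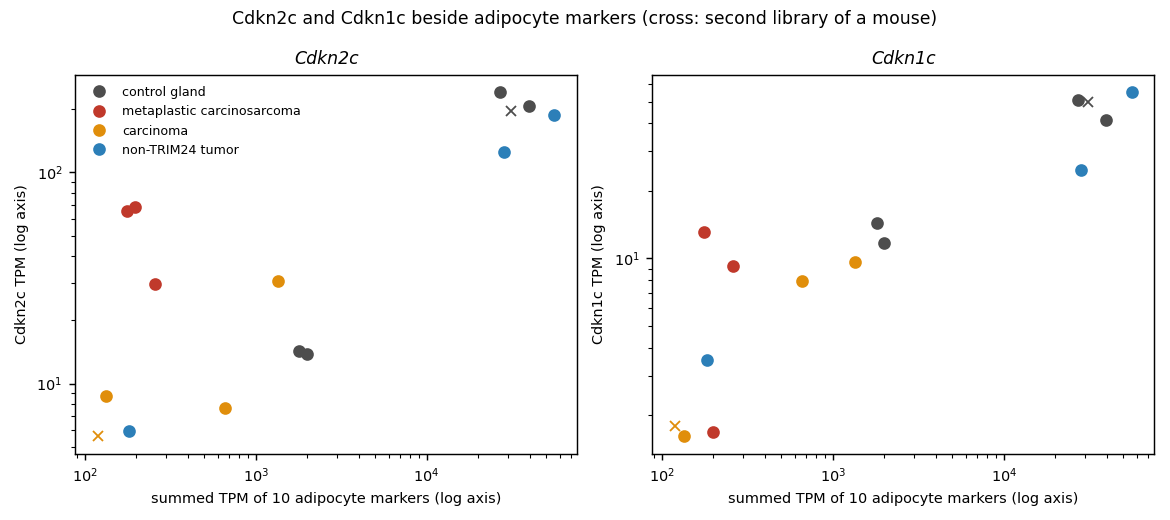
TPM of Cdkn2c (left) and Cdkn1c (right) against the summed TPM of 10 adipocyte markers, both on log axes, with 1 point per mouse and a cross for a second library. The 4 mice with marker sums from 27050 to 55910 hold the highest values of both genes.

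Cdkn2d (ENSMUSG00000096472.2, chr9:21288410-21291407, minus strand) encodes p19Ink4d, another inhibitor of Cdk4 and Cdk6. Metaplastic carcinosarcomas 64, 567 and 897 had 42.0, 33.4 and 17.8 TPM, against 11.7 to 14.02 in the carcinomas, 9.89 to 16.8 in the glands and 12.9 to 17.6 in the non-TRIM24 tumors. All 3 metaplastic carcinosarcomas lay above every other first library, but mouse 897 only by a small margin. Cdkn2d did not pass in the main comparisons but passed between metaplastic carcinosarcomas and glands with median-ratio scaling (difference 0.99, limma adjusted p = 0.0358), with quantile normalization (1.07, adjusted p = 0.0282) and without mouse 897 (1.33, adjusted p = 0.039).

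The mix of INK4 transcripts, given as percent of the family's summed TPM, is described here without a test. In the glands Cdkn2a made up 0.949% to 9.55% of the sum. Cdkn2c led in glands 133 and 392 with 91.7% and 83.9%, and Cdkn2d in glands 417_3 and 517_3 with 46.0% and 46.3%, ahead of Cdkn2c with 39.0% and 38.5%. In the metaplastic carcinosarcomas Cdkn2a made up 80.0% to 86.5% and Cdkn2c 2.86% to 7.02%. Carcinomas 89 and 273_5 were also led by Cdkn2a, up to 75.8%, whereas in carcinoma 3956 Cdkn2b took 59.4% and Cdkn2a 33.1%. Among the non-TRIM24 tumors Cdkn2c took 81.1% and 62.4% in FVB001 and FVB002, and Cdkn2a took 54.3% in tumor 219. The family's sum was 975 to 1241 TPM in the metaplastic carcinosarcomas, 204 to 272 in the carcinomas, 35.7 to 262 in the glands and 121 to 230 in the non-TRIM24 tumors.

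**Figure D4:**
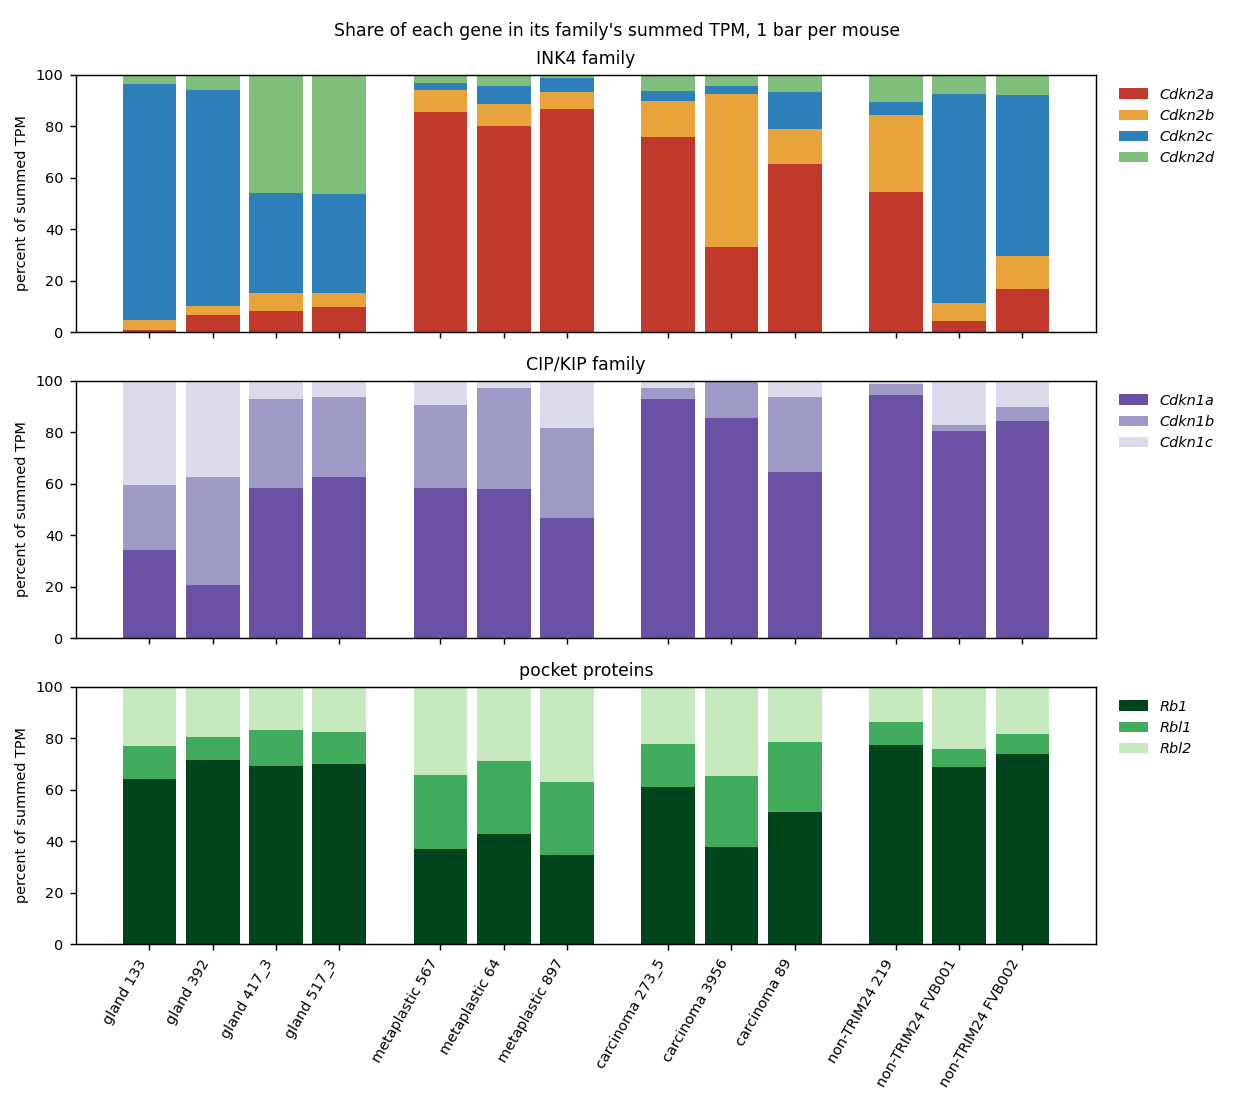
Percent of the summed TPM of the INK4 family (top), the CIP/KIP family (middle) and the pocket proteins (bottom) taken by each gene, with 1 bar per mouse from its first library. Cdkn2a fills 80.0% to 86.5% of the INK4 bars of the metaplastic carcinosarcomas, and the Rb1 share is 34.4% to 42.7% there against 64.1% to 71.5% in the glands.

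Cdkn1a (ENSMUSG00000023067.13, chr17:29090976-29100727, plus strand) encodes p21, the p53-induced inhibitor of Cdk2. Metaplastic carcinosarcomas 64, 567 and 897 had 34.2, 57.3 and 32.8 TPM, and carcinomas 89, 273_5 and 3956 had 98.8, 248.5 and 189.8, with no overlap. The difference, metaplastic carcinosarcomas minus carcinomas, was -2.03 ± 0.40 (SE, 95% interval -2.98 to -1.08) with an unadjusted p of 0.00146 and an adjusted p of 0.11 in limma, and it did not pass. Glands 133, 392, 417_3 and 517_3 had 42.9, 22.9, 116 and 113, so that the 2 glands high in fat cell markers were the lower ones. Between metaplastic carcinosarcomas and glands the Cdkn1a difference was -0.57 (limma, adjusted p = 0.506), and -1.88 (adjusted p = 0.0191) with the adipocyte covariate. The adipocyte marker sums of these groups did not overlap. The non-TRIM24 tumors were the highest group, at 258, 256 and 207 in mice 219, FVB001 and FVB002, and Cdkn1a made up 80.3% to 94.2% of the CIP/KIP sum there.

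Cdkn1b (ENSMUSG00000003031.14, chr6:134920401-134925513, plus strand) encodes p27, which holds Cdk2 in check in resting cells and is degraded through Skp2 and Cks1b. Glands 133, 392, 417_3 and 517_3 had 31.1, 46.0, 69.2 and 56.3 TPM, metaplastic carcinosarcomas 23.2 to 31.9 and carcinomas 44.7, 11.3 and 30.8 in mice 89, 273_5 and 3956. The difference between Trim24COE tumors and glands was -0.89 ± 0.35 (SE, limma, adjusted p = 0.103). It passed after median-ratio scaling of the libraries (-0.95, adjusted p = 0.048) or quantile normalization (-0.97, adjusted p = 0.0406). Between metaplastic carcinosarcomas and glands the Cdkn1b difference was -0.86 (limma, adjusted p = 0.0788). It passed with median-ratio scaling (adjusted p = 0.0247), with quantile normalization (0.0228) and without gland 133 (-1.07, adjusted p = 0.033). It also passed with the adipocyte covariate (-1.33, adjusted p = 0.0217), though the marker sums of these groups did not overlap.

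Rb1 (ENSMUSG00000022105.6, chr14:73183673-73325822, minus strand) encodes the retinoblastoma protein. Glands 133, 392, 417_3 and 517_3 had 34.2, 41.4, 72.4 and 49.3 TPM, a mean of 49.3 ± 16.6 (SD, n = 4). The metaplastic carcinosarcomas had 10.01, 10.7 and 7.19 in mice 64, 567 and 897 and the carcinomas 26.4, 16.7 and 13.4 in mice 89, 273_5 and 3956. Every Trim24COE tumor lay below every gland. In the first libraries every metaplastic carcinosarcoma lay below every carcinoma, but the repeat of carcinoma 3956 had 9.38, below 2 of the 3. The class difference of -0.91 (95% interval -1.69 to -0.14) did not pass (limma, adjusted p = 0.276). In the non-TRIM24 tumors 219, FVB001 and FVB002 Rb1 had 17.1, 14.8 and 25.3. The repeat of gland 133 in the batch of those tumors had 39.4, above all 3.

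The relatives Rbl1 (ENSMUSG00000027641.13, chr2:157145893-157204534, minus strand) and Rbl2 (ENSMUSG00000031666.15, chr8:91070057-91123844, plus strand) did not pass in any main comparison. Rbl1, itself a gene that E2F factors control, had 5.14 to 14.9 TPM in the glands, 5.94 to 8.25 in the metaplastic carcinosarcomas and 4.56 to 14.1 in the carcinomas, and its difference between Trim24COE tumors and glands was -0.08 (95% interval -0.84 to 0.69). Rbl2 had 11.4 to 17.8, 6.80 to 9.85 and 6.07 to 12.3 in the same groups, with a difference of -0.55 (95% interval -1.12 to 0.01). Rb1 made up 64.1% to 71.5% of the summed pocket protein TPM in the glands, 34.4% to 42.7% in the metaplastic carcinosarcomas and 37.7% to 61.2% in the carcinomas. In the non-TRIM24 tumors, with 1.46 to 2.59 TPM of Rbl1 and 3.04 to 6.33 of Rbl2, the Rb1 share was 68.8% to 77.5%.

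The non-TRIM24 tumors could be compared with the other groups only across sequencing batches, with a batch term that rests on the 2 mice sequenced in both. With that term 0 of 10 genes passed against glands in limma, beside 0.107% of 16775 genes, and 3 of 10 had an unadjusted p under 0.05, beside 10.7% of all genes (Cdkn2a, difference 3.40, Cdkn1a, 2.26, and Rbl2, -1.14). Carcinomas against non-TRIM24 tumors also gave 0 of 10, beside 0.0179%, with 1 of 10 unadjusted (Cdkn2b, 2.50), beside 17.7% of all genes. In that fit carcinoma 3956 entered with both of its libraries, at 162 and 172 TPM of Cdkn2b. Carcinomas 89 and 273_5 had 29.0 and 28.5, within the 16.0 to 36.3 of the non-TRIM24 tumors. The Cdkn2b difference ran from 1.03 to 2.61 in the 8 alternative fits with every mouse. Metaplastic carcinosarcomas against non-TRIM24 tumors gave 0 of 10, beside 0.0775%, with 5 of 10 unadjusted, beside 16.4% of all genes, Cdkn2a (4.02), Cdkn2b (3.13), Cdkn2d (1.06), Cdkn1a (-2.77) and Rb1 (-1.51).

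Without the batch term 7, 1 and 3 of the 10 genes passed in these 3 comparisons, beside 14.1%, 9.07% and 14.7% of the 16544 genes tested. Some of the genes differed between the libraries of the same mouse. Rbl1 was lower in batch 2 by 0.86 on the log2 scale in mouse 133 and by 0.60 in mouse 3956, and Cdkn1b by 0.69 and 0.60, while Cdkn2d was higher by 0.56 and 0.41. Cdkn2a was lower by 0.80 in mouse 133 and higher by 0.17 in mouse 3956. Its difference between non-TRIM24 tumors and glands was 2.36 without the batch term, against 3.40 with it. Within batch 2, Rbl1 had 1.46 to 2.59 TPM in the non-TRIM24 tumors beside 3.35 in gland 133 and 6.15 in carcinoma 3956, and Cdkn1b had 7.52 to 13.5 beside 18.9 and 20.0. Cdkn2a had 10.01 to 65.6 beside 1.00 and 102, and Cdkn1a 207 to 258 beside 40.3 and 186. Each of these orders rests on 1 gland and 1 carcinoma and was not tested within the batch.

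The neighbours of Cdkn2a on chromosome 4 were read as well, a window of 500 kb to either side by the M21 positions that was set after values had been seen. Of 38 genes in it 8 reached 1 TPM in any library and 6 were at 0 in all. Mtap, the methylthioadenosine salvage enzyme often lost together with CDKN2A in human cancers, had 15.1, 12.8, 11.9 and 11.01 TPM in glands 133, 392, 417_3 and 517_3. It had 82.0, 69.4 and 60.2 in metaplastic carcinosarcomas 64, 567 and 897, and 71.6, 29.3 and 103 in carcinomas 89, 273_5 and 3956. The groups did not overlap, with a difference of 2.28 ± 0.31 (SE, limma, adjusted p = 0.00118), and the non-TRIM24 tumors had 13.1 to 15.8, near the glands.

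The long noncoding RNA Wincr1 was listed at 0 to 0.34 TPM in the glands. In metaplastic carcinosarcomas 64, 567 and 897 it had 45.0, 38.9 and 50.3, and in carcinomas 89 and 3956 it had 63.5 and 60.9, whereas carcinoma 273_5 had 0.14. The same tumor was at 0 for Gm12602, where the other 5 Trim24COE tumors had 3.63 to 10.9, and it had the lowest Mtap of the 6. Its Cdkn2a of 154 was nevertheless the highest of the carcinomas. Wincr1 and Gm12602 had differences between Trim24COE tumors and glands of 4.60 ± 0.99 and 2.44 ± 0.61 (SE, limma, adjusted p = 0.0109 and 0.0208). Both were at 0.34 TPM or less in every gland. They met the filter of 1 TPM through the tumors alone, so no conclusion is drawn from these p-values. Gm12606, next to Cdkn2a, did not pass (1.43, adjusted p = 0.263), with 25.8 TPM in carcinoma 3956 and 10.5 in metaplastic carcinosarcoma 567 and at most 2.38 in any other first library. Between the tumor classes none of Mtap, Wincr1, Gm12602 and Gm12606 passed in limma, with differences from -0.39 to 1.46.

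**Figure D5:**
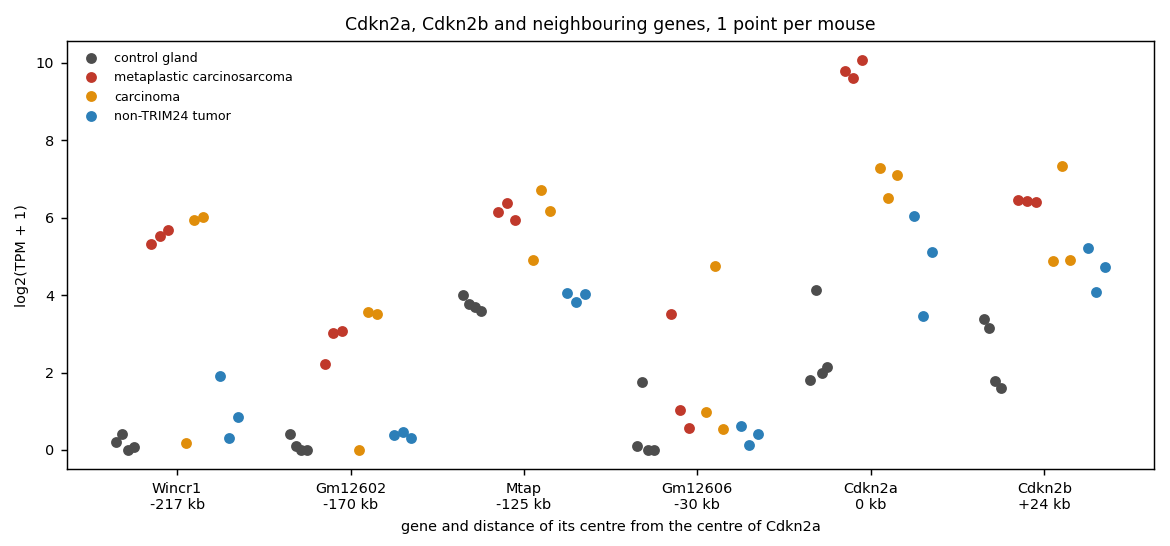
Log2(TPM + 1) of Cdkn2a, Cdkn2b and 4 neighbours, with 1 point per mouse, in order of the distance between gene centres in kb. Mtap is higher in all 6 Trim24COE tumors than in the glands, and Wincr1 is near 0 in the glands and in carcinoma 273_5.

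Genes upstream of the members were read from lists of pathway genes. Of 12 Polycomb and other repressors of the Cdkn2a locus, 0 were called higher and 2 lower in the Trim24COE tumors. Their median difference was -0.02, beside -0.04 for all genes. In this comparison 17.1% of all genes were called, near the share of these repressors. The same 17.1% stands beside the counts of activators and TGF-beta genes below. Cbx7, a Polycomb subunit that silences the locus, fell by 3.18 ± 0.36 (SE, limma, adjusted p = 0.000468), from 37.4 ± 13.1 TPM in the glands (SD, n = 4) to 2.36 ± 1.12 in the metaplastic carcinosarcomas and 4.19 ± 1.75 in the carcinomas (SD, n = 3 each). Ring1, its ubiquitin ligase partner, fell by 1.498 ± 0.35 (SE, adjusted p = 0.0159). Bmi1 (difference 0.32) and Ezh2 (0.41) did not pass. Of 8 activators of the locus, 0 were higher and 1 lower, Foxo1, which fell by 1.71 ± 0.30 (SE, adjusted p = 0.00373), and of 9 TGF-beta and SMAD genes that feed p15 and p21, 0 passed.

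Of the 5 genes of the ARF and p53 axis 0 passed in the Trim24COE tumors or between the classes. For Trp53 the study instead reports lower RNA in Trim24COE tumors than in Cre controls by qRT-PCR. It also reports no detectable p53 protein in the tumors by immunohistochemistry. The cause of this difference was not tested. Trp53 lay between 11.3 and 33.5 TPM in the metaplastic carcinosarcomas, between 46.3 and 108.5 in the carcinomas and between 32.8 and 109.5 in the glands. Mdm2, a p53 target and its ubiquitin ligase, had 18.7 to 28.3, 54.8 to 136 and 23.5 to 51.8 in the same order. Mdm4, a further p53 inhibitor, had 6.92 to 10.7, 25.2 to 31.0 and 21.5 to 52.8, and was lower in the metaplastic carcinosarcomas than in the glands by a difference of -1.76 (limma, adjusted p = 0.00996). These 3 genes, like Cdkn1a, had no overlap between the tumor classes, a pattern seen for 21.8% of all genes. Their differences, metaplastic carcinosarcomas minus carcinomas, were -1.78, -1.71 and -1.63. None of the 3 passed (limma, adjusted p = 0.199, 0.146 and 0.0574).

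Downstream of the pocket proteins, mitosis genes and E2F target genes were read. Of 15 mitosis genes 13 rose in the Trim24COE tumors and 0 fell, with a median of 2.29, where 17.1% of all genes were called. Birc5 rose by 2.97 ± 0.35 (SE, adjusted p = 0.000515), Plk1 by 2.49 and Cdk1 by 2.94 (limma, adjusted p = 0.00134 and 0.00174). The 25 E2F target genes had 10 higher, 0 lower and 15 not called, with a median of 1.02, led by Tk1 (1.97), Cdc45 (1.91) and Rrm2 (1.93), limma adjusted p = 0.00359, 0.00434 and 0.00922. Their summed TPM was 622 to 1316 in the 6 tumors and 238 to 802.5 in the glands, where glands 133 and 392, high in fat cell markers, had 250 and 238, and so the groups overlapped. Metaplastic carcinosarcomas alone had 11 of 25 targets (median 1.38) and 10 of 15 mitosis genes (median 2.42) higher, where 23% of all genes were called. Carcinomas alone had 0 of 25 (median 0.76) and 5 of 15 (median 1.99), where 3.5% were called. Between the classes 0 of either list passed.

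Among the kinases that the inhibitors bind, Cdk4 rose by 1.59 ± 0.29 (SE, limma, adjusted p = 0.00472), from 147 ± 60.4 TPM in the glands to 410 ± 114 in the metaplastic carcinosarcomas and 440 ± 112 in the carcinomas, and was the 1 of 5 genes for cyclin D and its kinases to pass. For cyclins E and A with Cdk2, 3 of 8 tested rose, Ccne1 (1.78), Ccna2 (2.24) and Ccne2 (1.24), limma adjusted p = 0.0048, 0.00663 and 0.0175. Of 10 E2F and DP factors 4 rose and 0 fell, among them Tfdp1 (1.38, adjusted p = 0.00823) and E2f1 (1.25, adjusted p = 0.0424). Of 6 genes for B-Myb and the MuvB core, the core being what joins p130 in the repressor complex of resting cells, 0 passed. The share of all genes called in this comparison was 17.1%, which stands beside the count of each list in this paragraph. In the p27 turnover list 3 of 9 rose, Cks1b (1.95, adjusted p = 0.00541), Skp2 (1.69, adjusted p = 0.0194) and Rbx1 (0.79, adjusted p = 0.0386), and Foxo1 fell.

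Near the 17.1% of all genes called, 2 of 11 secreted factors linked to senescence rose in the Trim24COE tumors. They were Igfbp3 (3.34, adjusted p = 0.00361 in limma) and the collagenase Mmp13 (5.90, adjusted p = 0.00515), while Il6 (adjusted p = 0.285) had 0.94 to 3.54 TPM in these tumors and 0.11 to 193 in the glands. Macrophage markers summed to 1199 to 2796 TPM in the Trim24COE tumors and 316 to 785 in the glands, with 6 of 8 called higher, and what share of these list changes came from them was not tested. In the 3 comparisons with non-TRIM24 tumors 0 genes of any of the 12 pathway lists passed.

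Genes whose order over the 10 mice of batch 1 was most like that of a member were found by Spearman's rho among 13531 genes, as a description over mice of 3 groups. For Cdkn2a they were Lgals3 (rho 0.988), Psmb1 (0.976), Fzd2, Urm1 and Orc6 (0.964 each), and Lgals3 had mean TPM of 101 in glands, 375 in carcinomas and 550 in metaplastic carcinosarcomas. For Cdkn2b they were Nkain1, Osbp2, Tnfrsf22 and Lrp11 (0.988 each) and Ier3ip1 (0.976), and Tnfrsf22 had 2.61, 22.6 and 17.9 in the same order of groups. For Rbl1 they were Sos1 (0.976), Bcorl1 and Rnf20 (0.964 each) and Tut7 and Dhx35 (0.952 each), and Rnf20 had means of 21.6, 19.5 and 20.5.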

How the data were processed

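The deposited values are TPM per gene. Libraries were made with a stranded total RNA kit per the labels, while the methods of the study name a TruSeq RNA kit without these words. The authors trimmed reads with Trimmomatic 0.39, aligned them to GRCm38 with STAR 2.7.2b and estimated abundance with RSEM 1.3.1 on GENCODE M14. The submitters' processing notes also name TopHat and Cufflinks, whose role is not given in the sources used here. Groups follow the sample labels.

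Here limma 3.58.1 (R 4.3.3) was applied to log2(TPM + 1), with the prior variance allowed to follow mean level. P-values were two-sided, adjusted by Benjamini and Hochberg over all genes tested and held against 0.05. A gene was tested where it reached 1 TPM in at least the number of libraries of the smaller group. Within batch 1 each mouse entered once, and comparisons with non-TRIM24 tumors took all 15 libraries and a batch term, so that 2 mice entered through both of their libraries. Exact permutation tests took every split of the mice into groups of the same sizes, in R 4.3.3. The fits were tested on simulated data. Alternatives were pseudocounts of 0.1 and 0.5 TPM, no filter, median-ratio and quantile scaling, an adipocyte marker covariate, all 10 libraries of batch 1 in 1 fit, the mean of repeat libraries, no batch term, a correlation between repeats and leaving out each mouse.

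The 10 genes and all lists were chosen with earlier results of these data known. Other genes were named as up to 4 per list with the smallest adjusted p past the threshold, by level where none passed, or as the 5 genes most like a member in order over mice, leaving out clone names. Bmi1, Ezh2 and Il6 and the neighbours of Cdkn2a fall outside this rule and were named after their values were seen, as the tables hold no positions. Positions are those of GENCODE M21.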

Additional observations from a re-analysis of the deposited data

Results flagged for a closer look

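Cdkn2a in control gland 392, at 16.5 TPM, stood apart from the other 3 glands, at 2.49 to 3.41 (a gap of 0.934 of the group's range, above Dixon's limit for 4 samples). Of 20 sets of values checked 1 stood out in this way, and chance alone gives about 1 in 20. This gland also had the highest adipocyte marker sum of the glands, 39880 TPM. The rise of Cdkn2a over the glands differed between the tumor classes by 2.86 on the log2 scale, metaplastic carcinosarcomas minus carcinomas (limma, adjusted p = 0.013, all 3 tumors of the first class above all 3 of the second), a value that lost its call without the filter on low values, with the adipocyte covariate and without mouse 64, 89 or 897.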

How the results depend on the processing

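Of 1050 values of single genes under an alternative, 996 kept their side of the threshold, 33 gained a call, 20 lost it and 1 reversed: Cdkn2c between metaplastic carcinosarcomas and glands, 2.62 with the adipocyte covariate against -0.15. Among the 996 that kept their side, 43 uncalled values changed sign without a call. For Trim24COE tumors against glands 3 to 4 genes passed under every alternative run. For metaplastic carcinosarcomas against glands the count of 3 was 5 with median-ratio scaling, 5 with quantile scaling and 6 with the adipocyte covariate. For carcinomas against glands the count of 1 was 0 without the filter, 2 with median-ratio and 2 with quantile scaling and 3 with all 10 libraries of batch 1 in 1 fit. Between the classes the count of 1 was 0 without the filter and 0 with the adipocyte covariate, where 0 genes of any kind passed, and 0 to 2 when 1 mouse was left out (0 without mouse 64, 89 or 897, 2 without 3956). Against non-TRIM24 tumors the count of 0 was 7 for glands without the batch term and 0 to 1 with 1 mouse left out (1 without 392 or FVB001), 1 for carcinomas without the batch term, and for metaplastic carcinosarcomas 1 with the adipocyte covariate, 3 without the batch term, 3 with a correlation between repeats and 0 to 1 with 1 mouse left out (1 without 219). The cause was not tested. Over all genes, 2597 passed for Trim24COE tumors against glands and 1241 with the adipocyte covariate, 3511 for metaplastic carcinosarcomas and 1623 without the filter, 542 for carcinomas and 46 without the filter (1170 in 1 fit of batch 1), and 99 between the classes. Against non-TRIM24 tumors 18, 3 and 13 genes passed for glands, carcinomas and metaplastic carcinosarcomas, and 2330, 1500 and 2425 without the batch term. With 1 mouse left out, 1779 to 2911, 1345 to 3093, 72 to 526 and 0 to 293 genes passed in the 4 comparisons within batch 1, and 7 to 95, 0 to 230 and 11 to 194 in those with non-TRIM24 tumors. No paired analysis was possible because the groups share no replicate numbers. TPM keep no depth, so the counting error behind a low value is unknown. The part of batch in the comparisons with non-TRIM24 tumors rests on 2 mice.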
